A study of Homo sapiens with 12 samples.

Results

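FaDu cells, a squamous carcinoma line derived from the human hypopharynx, were compared without radiation in their STING KO and STING WT forms, and all genes were examined, with particular attention to functions other than the interferon response. The comparison took the 3 unirradiated libraries of each line, 6 of the 12 RNA-Seq libraries of the study, and tested the 15973 of 58288 listed genes that reached a level of 1 TPM in at least 3 of the 12. TPM values are shares of a library's transcripts, corrected for length and scaled to the same total in every library. Every cell carried lentiviral Cas9 and a lentiviral guide vector, with a non-targeting guide in the STING WT line and a guide against STING in the STING KO line. The other 6 libraries came from the same lines after 4 fractions of 2 Gy and appear here as a second view of the same line difference. They also counted in the filter on levels and in the estimate of the spread behind the P-values of the unirradiated comparison. Each genotype was 1 line, and whether that line was a clone or a pool was not stated in the sources used here, so the effect of STING loss and any other difference between the lines cannot be told apart. The labels number 3 replicates in each group and do not say that they were separate cultures, so the P-values measure the spread between these libraries, which may be technical.

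STING, encoded by TMEM173, is an adaptor in the membrane of the endoplasmic reticulum. It binds the cyclic dinucleotide that cGAS makes on meeting DNA in the cytosol, and it passes the signal through the kinase TBK1 to the factor IRF3, which turns on interferon genes, and to NF-kB, which turns on inflammatory genes. Secreted interferon then induces a large set of genes through promoters that hold the interferon-stimulated response element. In squamous carcinoma cells this pathway runs beside an epithelial programme of keratins, desmosomes, serpins and calcium-binding S100 proteins, and beside growth factor, matrix and stress genes, none of which is a classical part of STING signalling.

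TMEM173 itself was measured at 21.7, 23.5 and 21.1 TPM in the STING WT libraries and at 5.18, 5.29 and 6.96 TPM in the STING KO libraries. The groups did not overlap, and the KO mean was 26.3% of the WT mean. The log2 fold change was -1.77 (SE 0.11, adjusted P = 1.16e-05, limma with Benjamini-Hochberg adjustment), and an exact two-sided permutation test of the 6 values gave P = 0.1, the smallest that 3 libraries against 3 allow. A guide that disrupts the reading frame need not remove the transcript, and the protein was not measured in these files. Fold changes throughout are on the log2(TPM + 1) scale, which understates the change of genes at low levels. The TPM tables keep no sequencing depth, so no counting interval can be given. Between 14860 and 15140 genes reached 1 TPM per library, and replicate libraries correlated at r of 0.984 to 0.986 across genes. All 10 squamous markers were found at 1 TPM or more, with summed levels of 7662 to 7783 TPM in WT and 7414 to 9270 TPM in KO libraries. Of the other cell types' markers, 1 of 10 for fibroblasts (COL1A1), 2 of 12 for leukocytes and 2 of 10 for endothelium reached 1 TPM. Their summed levels were 6.73 to 9.05 TPM against 6.41 to 7.17, 20.8 to 26.7 against 20.1 to 29.8, and 12.3 to 14.4 against 13.7 to 16.8, WT against KO, and defining markers such as DCN, LUM, CD3D, KDR and TEK were listed at 0 in all 6 libraries. CD14, on the leukocyte list, was 2.62 to 3.002 TPM in WT and 3.64 to 4.35 TPM in KO libraries and passed as higher, a call lost without any unirradiated library but KO replicate 2 and without any irradiated library. In such bulk libraries fewer cells of a kind and less RNA per cell cannot be told apart.

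Loss of STING went with lower levels of 202 genes (1.26% of those tested) and higher levels of 74 (0.463%), 276 in all (1.73%) at an adjusted P under 0.05. Genes of the interferon list made up 76 of these, every one lower, among them OASL at a log2 fold change of -6.16, HERC5 at -5.19 and IFIT2 at -4.49. The remaining 200 genes, 72.5% of all that passed, were not on the interferon list used here and are described here. They include TMEM173, the target of the guide. Absence from that list does not show that a gene does not respond to interferon. Among the 200 genes, 126 were lower, with a median log2 fold change of -0.51, and 74 were higher, with a median of 0.36. Changes off the list were mostly modest, since 20 of the lower and 3 of the higher genes reached a difference of 2-fold on this scale. Protein-coding genes made up 90.5% of the 200, 63 of the 200 were on at least 1 function list and 137 were on none. All 276 genes had every KO library on 1 side of every WT library, as had 20.6% of all tested genes (3292), and 2292 genes had an unadjusted P under 0.05. The median over all tested genes was -0.02, with 8878 of them below 0 and 7095 above. These counts depended on single libraries. Without KO replicate 2 the total fell to 172, without it or WT replicate 2 the lower genes off the list numbered 74 and 81, and the higher genes numbered 36, 39, 48 and 49 without KO replicate 2, KO replicate 3, WT replicate 3 and KO replicate 1. With the spread taken from the 6 unirradiated libraries alone, 103 genes passed, 39 of them lower and 19 higher off the list.

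The promoters of the genes that moved were searched for the element that interferon signalling uses. The letters GAAANNGAA, a short core of the interferon-stimulated response element, were searched on both strands from 250 bases before to 50 bases after the RefSeq start (GRCh38.p14), and 10234 tested genes could be matched to such a window. They were found in 61.8% of the windows of fallen interferon-list genes (34 of 55), in 5.41% of those of fallen genes off the list (4 of 74), in 8.51% of those of raised genes (4 of 47) and in 6.21% of all matched windows (636). The fallen genes off the list thus held these letters at about the share of all genes. The 4 fallen genes off the list with a match were PHC1, ACTA2, NLGN2 and SMARCA5, and the 4 raised genes were MMP10, DCAF6, FAT2 and F2RL1. Of the 15 genes off the list that fell most, 9 had a window and none of them a match. The letters TGACTCA, the AP-1 site, were present in 1.82%, 2.7%, 6.38% and 3.05% of the same groups in the same order. The 250 bases before the start are given for HERC5, for a fallen and a raised gene off the list with a match, and for the fallen genes FGF2 and KLF4 and the raised gene KRT4, which had none. Capitals mark the GAAANNGAA letters on either strand.
HERC5, chr4:88456869-88457118, plus strand: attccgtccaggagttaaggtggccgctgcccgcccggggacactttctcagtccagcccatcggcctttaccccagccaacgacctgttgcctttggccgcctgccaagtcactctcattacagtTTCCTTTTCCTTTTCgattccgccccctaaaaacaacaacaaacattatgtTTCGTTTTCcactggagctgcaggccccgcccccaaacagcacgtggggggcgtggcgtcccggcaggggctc
SMARCA5, chr4:143513452-143513701, plus strand: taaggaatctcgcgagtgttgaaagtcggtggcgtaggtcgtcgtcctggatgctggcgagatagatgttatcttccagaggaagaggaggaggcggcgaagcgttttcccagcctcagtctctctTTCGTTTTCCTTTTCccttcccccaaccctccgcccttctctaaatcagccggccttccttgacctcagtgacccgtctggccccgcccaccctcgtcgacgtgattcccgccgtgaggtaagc
MMP10, chr11:102780629-102780878, minus strand: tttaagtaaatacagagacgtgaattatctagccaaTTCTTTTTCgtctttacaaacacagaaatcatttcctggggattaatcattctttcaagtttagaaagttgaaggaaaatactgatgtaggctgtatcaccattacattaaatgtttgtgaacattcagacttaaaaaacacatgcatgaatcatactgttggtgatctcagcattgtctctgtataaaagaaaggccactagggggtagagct
FGF2, chr4:122826581-122826830, plus strand: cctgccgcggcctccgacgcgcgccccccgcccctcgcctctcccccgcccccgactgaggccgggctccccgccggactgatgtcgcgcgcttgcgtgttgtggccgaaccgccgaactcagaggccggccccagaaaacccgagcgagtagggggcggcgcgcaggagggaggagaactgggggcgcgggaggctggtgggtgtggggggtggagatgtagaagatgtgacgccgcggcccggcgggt
KLF4, chr9:107489770-107490019, minus strand: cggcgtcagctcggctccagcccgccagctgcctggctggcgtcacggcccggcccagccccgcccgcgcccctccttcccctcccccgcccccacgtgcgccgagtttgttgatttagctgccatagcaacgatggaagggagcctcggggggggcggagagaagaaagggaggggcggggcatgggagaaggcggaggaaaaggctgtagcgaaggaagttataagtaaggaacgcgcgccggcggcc
KRT4, chr12:52814117-52814366, minus strand: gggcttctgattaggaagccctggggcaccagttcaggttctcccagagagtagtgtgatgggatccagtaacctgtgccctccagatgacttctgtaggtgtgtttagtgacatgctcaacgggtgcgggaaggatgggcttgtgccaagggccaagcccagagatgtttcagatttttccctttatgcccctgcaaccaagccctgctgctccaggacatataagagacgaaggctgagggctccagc

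HERC5, an interferon-induced ligase for ISG15, showed 3 matches, the first beginning at base 127, and its level was 62.9 to 85 TPM in WT against 0.87 to 1.26 TPM in KO libraries. SMARCA5, an ATPase that slides nucleosomes, also had its first match at base 127, and it stood at 92.4, 91.0 and 88.9 TPM in WT and at 78.5, 80.02 and 77.7 TPM in KO libraries, a log2 fold change of -0.20. MMP10 had 1 match and was higher in the KO. A match describes letters in the window and no more.

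The 15 genes off the interferon list that fell most included the growth factors FGF2 and VEGFC. FGF2, basic fibroblast growth factor, stood at 16.5, 18.9 and 15.4 TPM in WT and at 2.94, 2.59 and 2.59 TPM in KO libraries. Every KO library was far below every WT library, a 6.26-fold difference of the means (log2 fold change -2.27, SE 0.10, adjusted P = 6.13e-07). VEGFC, the growth factor of lymphatic vessels, was 7.29, 8.67 and 8.29 TPM in WT and 2.55, 2.52 and 2.78 TPM in KO libraries (log2 fold change -1.33, adjusted P = 1.17e-04). These were the only 2 of 17 tested genes of the list of fibroblast and vascular growth factors and their receptors to pass, the list's median being -0.06.

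SPOCK1, a secreted proteoglycan linked to mesenchymal behaviour of carcinoma cells, was 8.50, 10.1 and 8.92 TPM in WT and 1.47, 1.61 and 1.801 TPM in KO libraries (log2 fold change -1.95, SE 0.13). KLF4, a zinc finger factor that promotes epithelial differentiation and is also induced early by many signals, was 27.5, 25.8 and 17.6 TPM in WT and 5.80, 6.29 and 4.78 TPM in KO libraries (log2 fold change -1.88, SE 0.16, adjusted P = 1.51e-04). The third WT library was the lowest of its group for KLF4 and still lay above all KO libraries. FGF2 overlaps NUDT6 and NFE2L3 overlaps HNRNPA2B1 on the opposite strand, and since the strand setting of the counting is not given in the sources used here, reads of such pairs cannot be told apart.

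PMAIP1, which encodes the death-promoting BCL2 family protein NOXA, was 25.5, 28.7 and 21.6 TPM in WT and 8.51, 8.85 and 10.5 TPM in KO libraries, a log2 fold change of -1.35. CCND2, cyclin D2, was 22.02, 22.5 and 24.2 TPM in WT and 9.44, 9.18 and 9.11 TPM in KO libraries (log2 fold change -1.22, SE 0.06, adjusted P = 1.21e-06). The spread within each group was small beside the gap. IL7R, the receptor chain for interleukin 7 and TSLP, fell from 37.5, 39.9 and 35.6 TPM to 15.4, 15.7 and 15.2 TPM (log2 fold change -1.24, adjusted P = 2.14e-06).

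Of the remaining genes in this group, PODXL, a sialomucin of the cell surface, was 12.7 to 20.1 TPM in WT and 5.76 to 6.22 TPM in KO libraries. PLCG2, a phospholipase best known from B cells and myeloid cells, was 13.9 to 14.9 TPM in WT and 4.62 to 6.68 TPM in KO libraries, and NFE2L3, a relative of NRF2, was 7.53 to 8.72 TPM in WT and 3.10 to 3.34 TPM in KO libraries. PPM1K, a mitochondrial phosphatase of branched-chain amino acid breakdown, was 2.90 to 4.61 TPM in WT and 0.71 to 1.34 TPM in KO libraries. It lies 94.0 kb from the interferon-list gene HERC6. PRR15 was 3.56 to 5.98 TPM in WT and 1.498 to 2.19 TPM in KO libraries. RNU1-85P, a U1 pseudogene inside TEX14 on the same strand, was 1.05 to 1.94 TPM in WT and 0, 0 and 0.06 TPM in KO libraries, and its groups overlapped after irradiation, at 0.39 to 1.03 TPM in WT and 0 to 1.06 TPM in KO libraries. Under the 20 alternative settings, 12 of these 15 genes kept their call throughout. PPM1K and PRR15 lost it only with the 6 unirradiated libraries alone, and RNU1-85P lost it when any 1 of the 6 unirradiated libraries or 3 of the irradiated ones was left out.

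**Figure D1:**
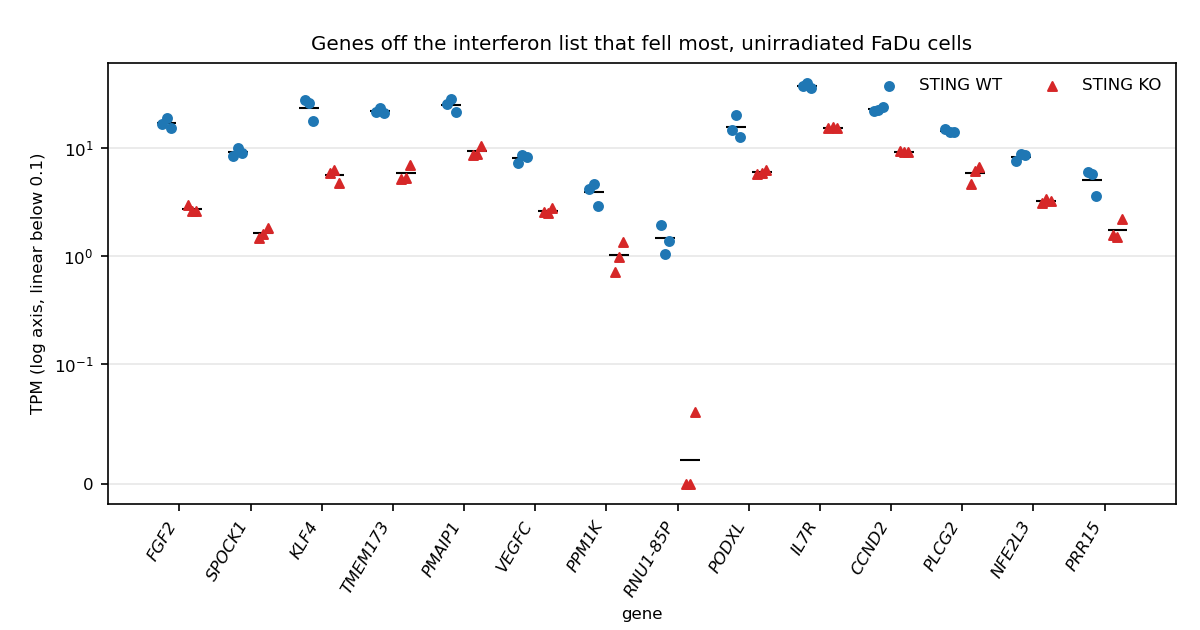
Levels of 14 of the 15 genes off the interferon list that fell most, with genes on the horizontal axis and TPM on a vertical axis that is logarithmic above 0.1 and linear below. Circles are the 3 STING WT and triangles the 3 STING KO libraries, bars are group means, and the KO libraries lie below the WT libraries for every gene, from FGF2 at 2.59 to 2.94 TPM against 15.4 to 18.9 TPM to PRR15 at 1.498 to 2.19 TPM against 3.56 to 5.98 TPM.

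The 15 genes with a gene name that rose most held 3 matrix metalloproteinases, 2 aldehyde dehydrogenases, 1 keratin and 1 serpin beside 8 others. KRT4, the keratin of the suprabasal layers of mucosal squamous epithelium, stood at 28.5, 24.6 and 21.8 TPM in WT and at 55.3, 59.5 and 60.7 TPM in KO libraries. The KO mean was 2.34-fold the WT mean (log2 fold change 1.20, SE 0.11, adjusted P = 1.64e-04). ALDH1A1, which oxidises retinaldehyde to retinoic acid, was 2.47, 2.30 and 2.59 TPM in WT and 4.89, 5.64 and 6.23 TPM in KO libraries, and ALDH3A1, an aldehyde dehydrogenase of stratified epithelium, was 140.1, 119.4 and 116.7 TPM in WT and 201.0, 220.1 and 221.1 TPM in KO libraries. Their log2 fold changes were 0.93 (adjusted P = 2.19e-03) and 0.77 (adjusted P = 1.67e-03). SERPINB3, a squamous cell carcinoma antigen and inhibitor of cysteine proteases with a close paralog in SERPINB4 that the counting could split, was 2.45 to 2.88 TPM in WT and 5.14 to 6.48 TPM in KO libraries.

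3 metalloproteinases of the cluster on chromosome 11 rose together. MMP1, interstitial collagenase, was 6.91, 6.14 and 6.24 TPM in WT and 13.7, 12.5 and 11.8 TPM in KO libraries, a log2 fold change of 0.88. MMP10, stromelysin 2, was 3.47, 3.64 and 3.36 TPM in WT and 7.39, 6.91 and 7.16 TPM in KO libraries, a log2 fold change of 0.86. MMP13, collagenase 3, was 6.27, 6.50 and 4.98 TPM in WT and 11.4, 11.2 and 10.1 TPM in KO libraries, a log2 fold change of 0.79. In each case all KO libraries lay above all WT libraries, and MMP1 and MMP10 both overlap WTAPP1 on the opposite strand. The call of MMP13 was lost without KO replicate 2.

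SOX2, a transcription factor of the squamous lineage, was 4.22, 2.90 and 3.25 TPM in WT and 6.07, 7.20 and 6.60 TPM in KO libraries (log2 fold change 0.78, adjusted P = 8.27e-03). IL1R2, the decoy receptor for interleukin 1, was 0.42 to 0.85 TPM in WT and 1.53 to 2.12 TPM in KO libraries, and WNT10A, a Wnt ligand of epithelium, was 18.4 to 20.2 TPM in WT and 27.5 to 28.4 TPM in KO libraries. CALM3, 1 of the genes for calmodulin, rose from 83.1 to 96.99 TPM to 146.0 to 159.9 TPM, and its relatives could take reads from it in the counting. IGFL1, LYPD1, FGD3 and TCHHL1, the last from the epidermal differentiation complex, had log2 fold changes of 0.66, 0.57, 0.55 and 0.62. The levels of TCHHL1 were low, at 0.28 to 0.36 TPM in WT and 0.91 to 1.13 TPM in KO libraries. Of these 15 raised genes 7 kept their call in all 20 alternatives, namely KRT4, ALDH1A1, MMP1, MMP10, ALDH3A1, IGFL1 and WNT10A. The calls of CALM3 and TCHHL1 were lost without any 1 of the 6 unirradiated libraries (for TCHHL1 also without 3 of the irradiated ones), and those of SERPINB3, IL1R2 and FGD3 without some of them. SERPINB3 lost its call without WT replicate 2 or 3 or KO replicate 2 or 3, IL1R2 without WT replicate 1 or 2 or KO replicate 2 or 3, and FGD3 without WT replicate 2 or 3, any KO replicate or 2 of the irradiated libraries. Genes known only by a clone name were kept off these lists, and AC079305.1 and AC012184.2, with log2 fold changes of 1.31 and 1.13, are the other raised genes past 2-fold.

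**Figure D2:**
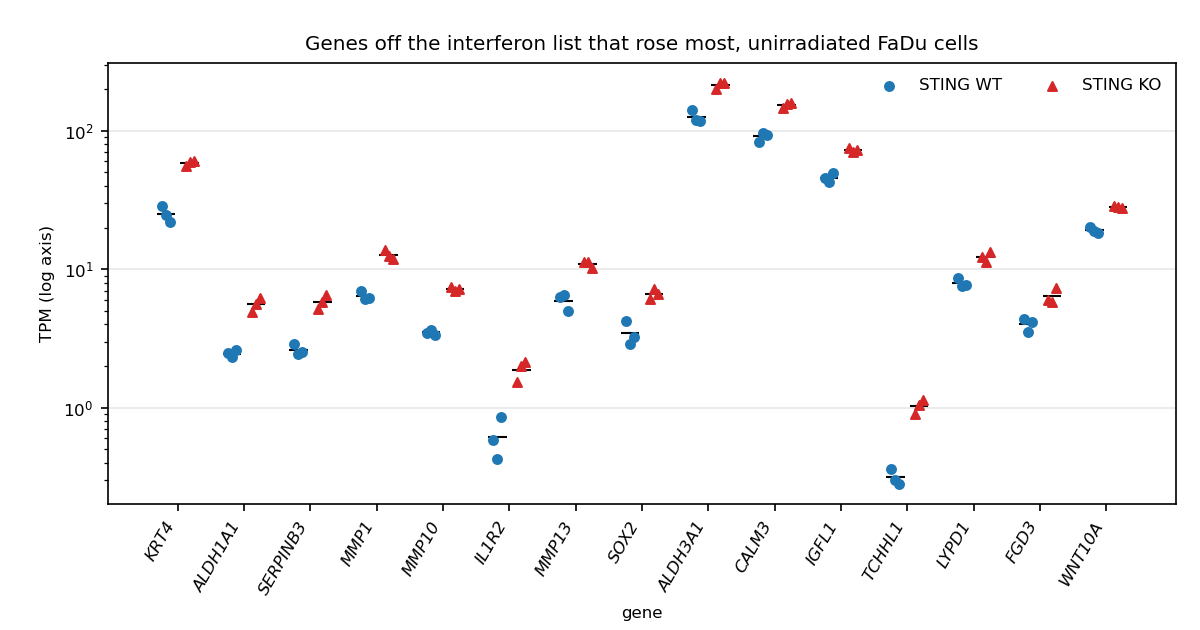
Level of each of the 15 genes off the interferon list that rose most, with genes on the horizontal axis and TPM on a logarithmic vertical axis. Circles are the 3 STING WT and triangles the 3 STING KO libraries, bars are group means, and the KO libraries lie above the WT libraries for every gene, from KRT4 at 55.3 to 60.7 TPM against 21.8 to 28.5 TPM to WNT10A at 27.5 to 28.4 TPM against 18.4 to 20.2 TPM.

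Within the pathway of STING itself, 3 of 27 tested genes fell and none rose. Beside TMEM173 these were SAMHD1, a dNTP hydrolase that is also interferon-induced (log2 fold change -0.72), and IFI16, a nuclear DNA sensor (log2 fold change -0.38), both on the interferon list as well. The sensor cGAS, listed as MB21D1, had a log2 fold change of 0.02, TBK1 of 0.01 and IRF3 of -0.06, none past the threshold. In the NF-kB list, 2 of 35 genes fell and none rose, with a median log2 fold change of -0.0033. These were IL1B, interleukin 1 beta, at 159.5, 172.9 and 161.9 TPM in WT and 135.9, 127.2 and 137.5 TPM in KO libraries, and LIF, a cytokine of the interleukin 6 family, at 22.8 to 24.2 TPM in WT and 17.8 to 18.3 TPM in KO libraries. The inhibitor NFKBIA had a log2 fold change of -0.02, CXCL8 of 0.37 and CXCL1 of 0.46, none past the threshold. The same pair were the only interleukins and chemokines of 22 to pass. Of that list 16 lay below 0, beside 8878 of all 15973 tested genes, with a median of -0.15. The call of IL1B was lost without any 1 of the 6 unirradiated libraries.

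Squamous differentiation genes moved in both directions. Of 20 keratins 3 rose and 1 fell, with a median log2 fold change of 0.11 against -0.02 for all genes. KRT19, a keratin of simple and mucosal epithelium, was 1050, 1003 and 1029 TPM in WT and 1390, 1376 and 1422 TPM in KO libraries (log2 fold change 0.44, adjusted P = 2.74e-05). KRT14, the keratin of basal cells, was 130.4 to 138.8 TPM in WT and 157.6 to 162.7 TPM in KO libraries, while KRT17, a keratin of stressed and wounded epithelium, fell from 3931 to 4380 TPM to 3279 to 3499 TPM (log2 fold change -0.29). KRT5 had higher values in the KO, 3032, 4839 and 3499 TPM against 2459, 2746 and 2555 TPM, and missed the threshold (adjusted P = 0.162). The call of KRT14 was lost without any 1 of the 6 unirradiated libraries, and that of KRT17 without WT replicate 1 or 3 or KO replicate 3.

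Among 9 clade B serpins, SERPINB3 and SERPINB13 rose, the latter from 39.1 to 43.6 TPM to 56.3 to 61.0 TPM. Of 13 S100 genes 12 lay above 0, beside 7095 of all 15973 tested genes, and 1 passed. It was S100A11, at 775 to 811 TPM in WT and 890 to 985 TPM in KO libraries. Its call was lost without WT replicate 1 or 3 or KO replicate 1 or 3. S100A9 was 38.8, 38.6 and 25.3 TPM in WT and 48.5, 52.0 and 60.5 TPM in KO libraries and did not pass (adjusted P = 0.148). None of 15 epithelial kallikreins and their inhibitors and none of 16 cornified envelope genes passed in either direction, with 3 and 5 of them at an unadjusted P under 0.05 and medians of 0.10 and 0.02. Of 34 squamous transcription factors, SOX2 and NOTCH3 rose, NOTCH3 from 24.5 to 29.02 TPM to 35.7 to 36.8 TPM, and KLF4 fell. Of 30 genes of cell junctions, DSC3, a desmosomal cadherin of basal layers, and CGN, the tight junction protein cingulin, rose by 0.32 and 0.38 on the log2 scale. The call of NOTCH3 was lost without KO replicate 3, and that of CGN without WT replicate 1 or KO replicate 2 or 3.

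Mesenchymal genes fell where they passed. Of 24 tested, 5 were lower and none higher, with a median log2 fold change of -0.15. Below 0 lay 18 of the 24, beside 8878 of all 15973 tested genes. Beside SPOCK1 these included TAGLN, an actin-binding protein of smooth muscle and myofibroblasts, at 28.3, 29.9 and 28.4 TPM in WT and 21.0, 21.4 and 18.7 TPM in KO libraries, and ACTA2, smooth muscle actin, at 6.71 to 8.10 TPM in WT and 4.16 to 4.90 TPM in KO libraries. FN1, fibronectin, was 8.92 to 12.4 TPM in WT and 4.36 to 6.41 TPM in KO libraries. Fibroblast markers were at or near 0 in both lines apart from COL1A1, at 6.60 to 8.99 TPM in WT and 6.34 to 7.04 TPM in KO libraries. The call of FN1 was lost without WT replicate 1 or KO replicate 2 or 3.

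Proteases of the matrix and of the plasminogen system had the most calls of any list here other than the interferon list, 9 of 31, with 6 higher and 3 lower. Beside the 3 metalloproteinases, the raised genes were the thrombin and trypsin receptors F2R and F2RL1 and the plasminogen activator PLAT, with log2 fold changes of 0.31, 0.31 and 0.47. The fallen genes included the urokinase receptor PLAUR at 8.999, 12.6 and 10.3 TPM in WT and 5.90, 5.45 and 5.67 TPM in KO libraries, and PROCR, the receptor of protein C, at 11.3 to 12.98 TPM in WT and 7.41 to 9.27 TPM in KO libraries. The list's median was 0.05. The call of PROCR was lost without WT replicate 2 or 3 or KO replicate 2. Of 41 genes of the extracellular matrix 2 fell, SPOCK1 and FN1, at log2 fold changes of -1.95 and -0.83, and 1 rose, FBN2, fibrillin 2, at 0.28. Of 20 integrins 1 passed, ITGA5, the fibronectin receptor subunit, at 19.7, 23.9 and 22.99 TPM in WT and 17.5, 15.6 and 16.1 TPM in KO libraries. The call of FBN2 was lost without KO replicate 2 and that of ITGA5 without WT replicate 2 or 3, any KO replicate or 4 of the irradiated libraries.

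TGFB1, transforming growth factor beta 1, was 44.5, 47.2 and 47.0 TPM in WT and 38.3, 37.2 and 35.2 TPM in KO libraries (log2 fold change -0.32, adjusted P = 0.0132). It overlaps genes on the opposite strand, and its call was lost without WT replicate 2 or 3 or KO replicate 2 or 3. It was 1 of 2 genes of 28 to fall in the list of TGF-beta and BMP genes, whose median was 0.04. Of 23 genes of the EGFR family, its ligands and related receptors, AREG, the EGFR ligand amphiregulin, fell from 110.8 to 121.2 TPM to 88.3 to 92.6 TPM, and MET, the receptor of hepatocyte growth factor, from 77.4 to 94.7 TPM to 63.8 to 66.9 TPM. The call of MET was lost without WT replicate 2, any KO replicate or 4 of the irradiated libraries.

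Of 31 Wnt genes 4 rose and 2 fell. The raised genes were the ligands WNT10A and WNT7B and the receptors LGR4 and FZD10, WNT7B standing at 79.7, 79.5 and 77.8 TPM in WT and at 98.8, 94.1 and 95.4 TPM in KO libraries and LGR4 at 14.6 to 15.8 TPM in WT and 18.6 to 19.9 TPM in KO libraries. The fallen genes were the receptor FZD4 and TCF7L1, a factor at Wnt target genes, the latter at 32.9 to 36.1 TPM in WT and 25.6 to 28.1 TPM in KO libraries. The median of the list was 0.01.

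In metabolism, 3 of 31 aldehyde and retinoid genes rose and none fell. The third, ALDH1A3, a retinaldehyde dehydrogenase, was the most abundant of them at 921, 1010 and 933 TPM in WT and 1196, 1224 and 1173 TPM in KO libraries (log2 fold change 0.33), and its call was lost without WT replicate 1 or 3 or any KO replicate. Of 27 genes of cholesterol synthesis and uptake 24 lay above 0, with a median of 0.14, and 2 rose past the threshold. Of all 15973 tested genes 7095 lay above 0, and 1.73% passed in either direction. No gene of fatty acid synthesis passed among 29, with 6 at an unadjusted P under 0.05, and SCD, the stearoyl-CoA desaturase, missed narrowly at 753.0 to 764.9 TPM against 831.4 to 855.7 TPM (adjusted P = 0.0577). Of 34 glycolysis and hypoxia genes PFKP alone fell, and it lost its call without WT replicate 1 or 3, any KO replicate or any irradiated library.

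Few redox genes passed. None of 26 peroxidases and superoxide dismutases passed, 3 having an unadjusted P under 0.05. PRDX1, the most abundant of them, was 911, 917 and 898 TPM in WT and 1572, 1022 and 1027 TPM in KO libraries, the first KO library standing apart, with an adjusted P of 0.371. Of 30 NRF2 targets SLC7A11 fell, the cystine transporter of glutathione synthesis, at 28.8, 30.2 and 27.2 TPM in WT and 21.9, 22.2 and 22.5 TPM in KO libraries. It counted also among the 2 of 40 genes of unfolded protein and amino acid stress that fell, with STC2, a secreted glycoprotein at 19.1 to 21.1 TPM in WT and 15.3 to 15.9 TPM in KO libraries. In that list 31 of 40 lay below 0, beside 8878 of all 15973 tested genes, with a median of -0.07. The call of SLC7A11 was lost without WT replicate 1 or 2 or any KO replicate, and that of STC2 without WT replicate 2 or 3 or KO replicate 2 or 3.

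In the cell cycle, CDKN1A, the cyclin-dependent kinase inhibitor p21, was 26.8, 28.9 and 23.5 TPM in WT and 16.4, 15.7 and 15.4 TPM in KO libraries (log2 fold change -0.70, adjusted P = 3.31e-03). It was the only 1 of the 29 tested genes on the list of p53 targets to pass, the median of the list being -0.02. PMAIP1, which also fell, was counted with the apoptosis genes and was not on that list. None of 38 S phase genes passed, with 6 at an unadjusted P under 0.05, and of 39 mitotic genes CDC20, an activator of the anaphase-promoting complex, rose from 316.4 to 335.3 TPM to 384.8 to 407.9 TPM. Of 41 histone genes 3 fell and 31 lay below 0, with a median of -0.18. HIST1H1C, a linker histone, was 151.4, 153.2 and 160.6 TPM in WT and 108.7, 116.2 and 108.0 TPM in KO libraries, the linker histone H1F0 was 536.2 to 571.7 TPM in WT and 455.9 to 460.1 TPM in KO libraries, and HIST3H2A was 69.7 to 75.1 TPM in WT and 51.5 to 56.4 TPM in KO libraries. Transcripts of replication-dependent histones mostly lack a poly(A) tail, and the libraries were made with oligo-dT. Of 47 genes of double-strand break repair MRE11 alone passed, the nuclease of the MRN complex, at 28.4, 24.9 and 24.4 TPM in WT and 16.9, 16.2 and 18.7 TPM in KO libraries. Below 0 lay 33 of the 47. Of all 15973 tested genes, 1.73% passed and 8878 lay below 0.

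Among other functions, CEACAM1, an adhesion molecule also induced by interferon, fell from 1.54 to 1.97 TPM to 0.03 to 0.11 TPM and was the only 1 of 21 immune ligands to pass. The same held for KLF4 among 25 immediate early genes, PMAIP1 among 32 apoptosis genes and PROCR among 20 genes of complement and coagulation. Of 38 ion channel and neuronal genes, SEMA3C, NLGN2 and KCNQ5 fell by 0.24, 0.25 and 0.46 on the log2 scale and the netrin receptor UNC5B rose by 0.40. Each of these 4 calls was lost without KO replicate 2, KO replicate 3, WT replicate 2 or WT replicate 3, and some also without other libraries. Of 78 cytosolic ribosomal proteins RPL5 alone passed, at 0.17, and lost its call without WT replicate 2 or 3, KO replicate 2 or 3 or 4 of the irradiated libraries. None of 13 mitochondrially encoded genes, 72 nuclear respiratory chain genes, 18 heat shock genes, 30 transporters and 10 genes of the 11q13 region passed in limma, with 0, 12, 2, 6 and 1 of them at an unadjusted P under 0.05.

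**Figure D3:**
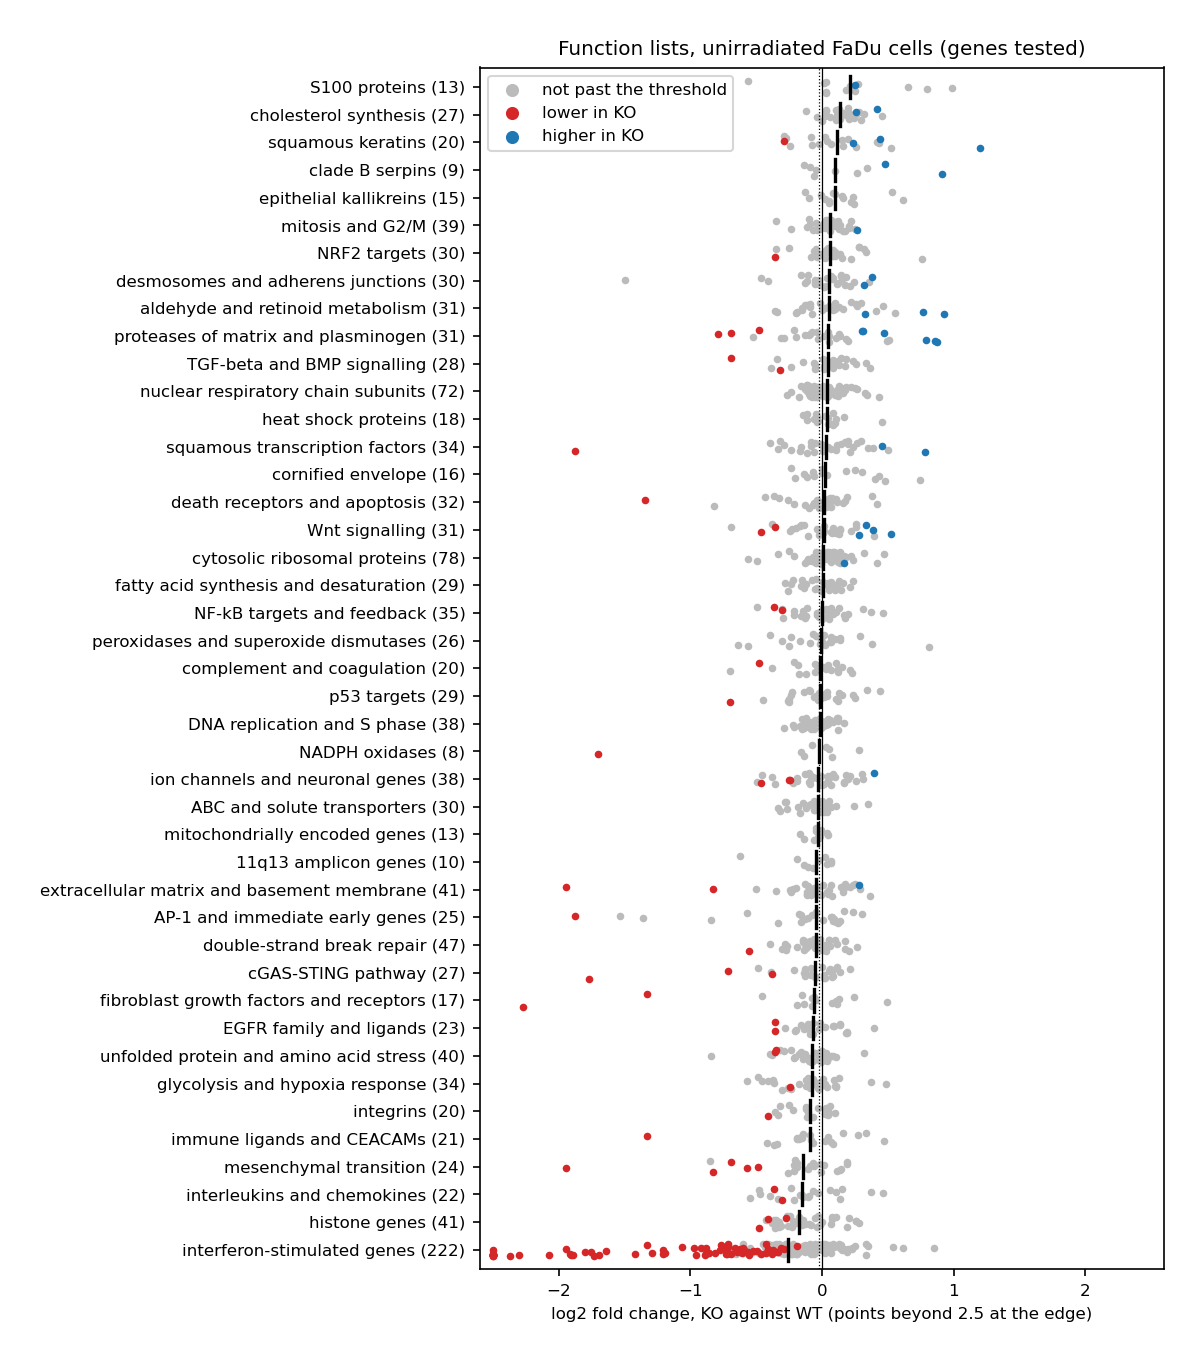
Difference between STING KO and STING WT at 0 Gy, as a log2 fold change, on the horizontal axis, with 1 point for each tested gene and 1 line for each list, ordered by the median (black bar), and the number of genes tested in brackets. Grey points did not pass, red points were lower and blue points higher in the KO, and the solid and dotted vertical lines mark 0 and the median of all genes at -0.02. S100 genes have the highest median, 0.21, and the interferon list the lowest, -0.26. Points beyond 2.5 are drawn at the edge.

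The lists show that the line difference was widely spread, with most members of each list not past the threshold and a few genes of some lists far from 0. Among the lists other than the cell type markers, the S100, cholesterol and keratin lists had the highest medians and the histone, interleukin and mesenchymal lists the lowest after the interferon list. All lists together account for 63 of the 200 genes. Single calls within a list are to be read beside the 1.73% of all tested genes that passed.

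Genes on no function list made up the larger share. The transcription factors SP8 and HOXB9 had log2 fold changes of -1.07 and -0.79, the adaptor GRB10 of -0.94, the ubiquitin ligase RNF144A of -1.03, and the meiotic cohesin REC8 of -0.80. The receptors HCAR2 and HCAR3, which respond to niacin and to hydroxylated fatty acids, fell together from 18.01 to 24.2 TPM to 9.41 to 14.1 TPM and from 9.27 to 13.4 TPM to 4.85 to 6.81 TPM. They lie 11.4 kb apart and are near-identical copies that can share reads, so their separate values are uncertain. STEAP1 and STEAP2, neighbouring genes of the STEAP family 2.76 kb apart, fell by 0.51 and 0.48 on the log2 scale. FOXA1, a pioneer factor of epithelium, and PTGES, a prostaglandin E synthase, both rose by 0.44 on that scale. The genes of this paragraph were chosen after their values were seen.

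The position of the genes was also uneven. Of the raised genes 29.7% lay on chromosome 1 (22 of 74), which holds 9.97% of tested genes, and of the fallen genes off the interferon list 14.3% lay on chromosome 17, which holds 6.34%, and 11.1% on chromosome 7, which holds 4.86% and no raised gene. Whole chromosomes shifted by small amounts. The median log2 fold change was 0.04 on chromosome 1 and 0.05 on chromosome 15, where 59.9% and 61.6% of genes lay above 0, against 44.4% of all genes. It was -0.09 on chromosome 17, where 29.7% lay above 0, and -0.06 on both chromosome 7 and chromosome 22. For chromosome 17 the median of each library against the WT mean lay between -0.01 and 0.02 in the WT and between -0.10 and -0.08 in the KO line, and for chromosome 1 between -0.01 and 0.02 in the WT and at 0.04 in all 3 KO libraries. The 3 KO libraries lay beyond all 3 WT libraries on both. The same held on chromosomes 2, 6, 7, 8, 10, 15, 16, 22 and X. It held also over all tested genes, at -0.0222 to -0.016 in the KO and -0.0135 to 0.0188 in the WT libraries. In irradiated cells the medians were -0.10 on chromosome 17 and 0.03 on chromosome 1. The DNA content of the 2 lines was not measured in these files, so its part in any result was not tested.

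**Figure D4:**
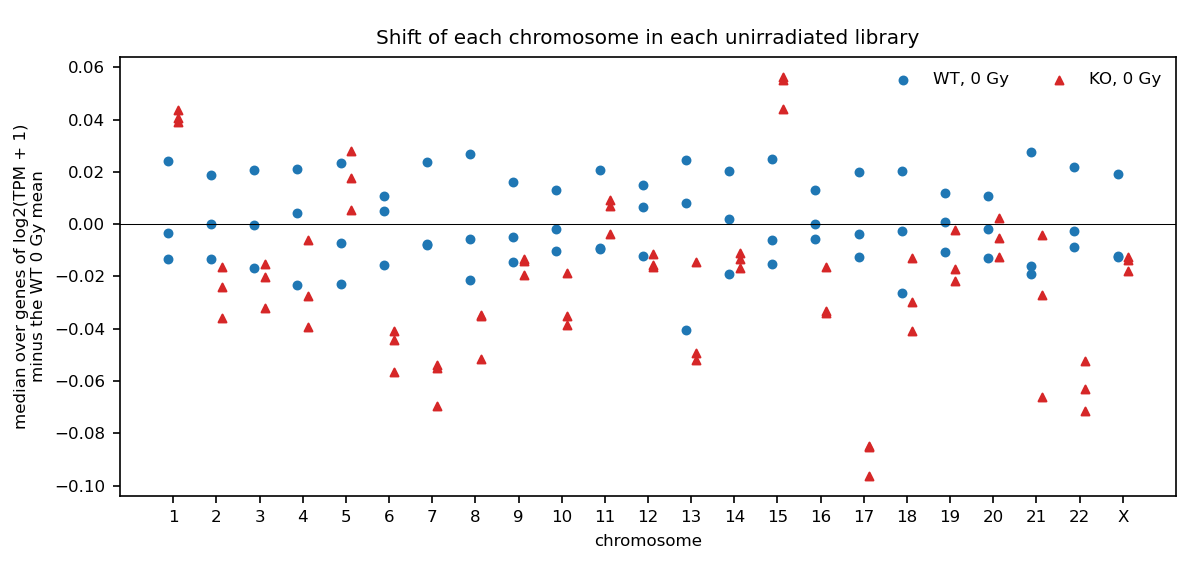
Median over the tested genes of each chromosome of the log2(TPM + 1) level minus the mean of the WT libraries, by chromosome on the horizontal axis, with circles for the 3 STING WT and triangles for the 3 STING KO libraries at 0 Gy. On chromosomes 1 and 15 the KO libraries lie above the WT libraries, and on chromosomes 7, 17 and 22 they lie below them, with chromosome 17 at -0.08 to -0.10.

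Windows of 20 neighbouring tested genes, 783 in all, had medians from -0.18, on chromosome 17, to 0.26. The highest was the epidermal differentiation complex on chromosome 1, chr1:152032506-153661830, from S100A11 to SNAPIN, where 90.0% of genes lay above 0 and 2, S100A11 and TCHHL1, passed. Its median was 0.20 in irradiated cells. TCHHL1 reached 1 TPM only in KO libraries, with or without radiation, so it entered the test through the line where it was higher. SPRR1B, a cornified envelope precursor in that region, was 4.82, 4.57 and 5.88 TPM in WT and 6.20, 7.69 and 7.23 TPM in KO libraries, and SPRR1A had a log2 fold change of 0.74 without passing. The window around the metalloproteinase cluster, chr11:102347211-107565746, had a median of 0.19 and 3 raised genes. Beside MMP10, MMP1 and MMP13, raised neighbours off the interferon list within 200 kb of each other were SERPINB13 with SERPINB3, KRT19 with KRT14, F2R with F2RL1, S100A11 with TCHHL1, and SSNA1 with TUBB4B. Coordinates are those of GENCODE 29 on GRCh38, matched by gene identifier.

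The irradiated libraries gave a second measure of the line difference, in which 573 genes passed (3.59%). The line difference in these libraries was not used to choose the 276 genes, although the filter counted their levels and the fit shares 1 estimate of the spread. Of the 126 lower genes off the interferon list 119 were lower again, 93 of them past the threshold, with a median of -0.45, and of the 74 higher genes 72 were higher again, 50 of them past it, with a median of 0.31. All 76 interferon-list genes were lower again and 74 passed. FGF2 had a log2 fold change of -2.74 after irradiation, SPOCK1 of -2.37 and KRT4 of 1.41. ALDH1A1, CALM3 and IL1R2 had values of 0.41, 0.51 and 0.61 there and did not pass. The difference between the KO effects passed in 3 genes (0.0188%), of which 2, MPP7 and MRE11, were among the 276, and the third was AHNAK. These were named after their values were seen. That count ranged from 1 to 9 when single libraries were left out, being 1 without KO replicate 1 or 2 at 0 Gy, WT replicate 2 or 3 after irradiation or KO replicate 2 after irradiation, 5 without KO replicate 3 and 7 without WT replicate 3 at 0 Gy, and 9 without KO replicate 1 after irradiation.

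**Figure D5:**
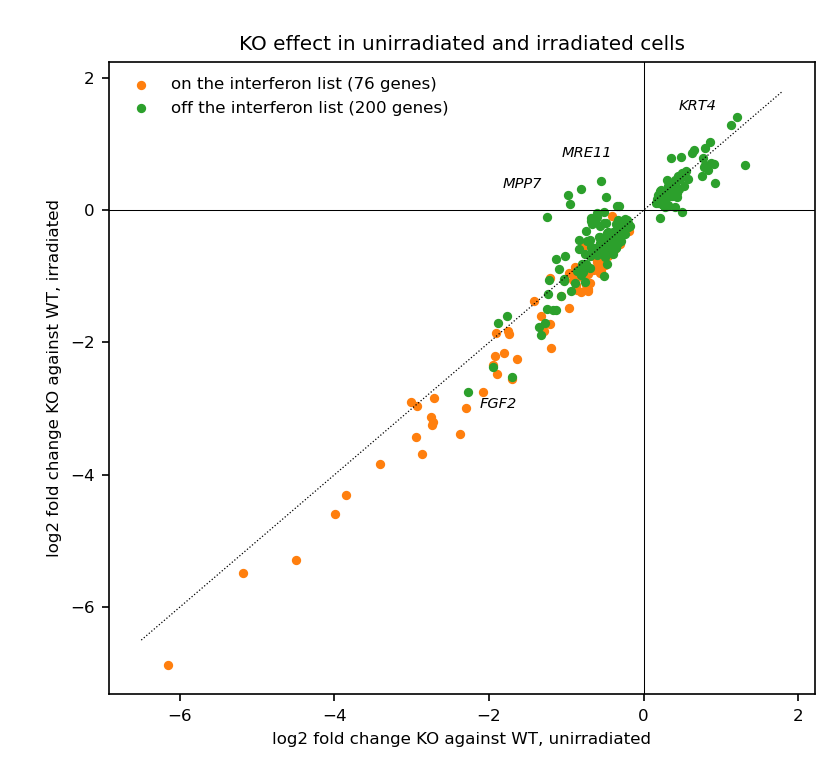
Log2 fold change between the lines after irradiation (vertical axis) plotted over that without irradiation (horizontal axis) for the 276 genes that passed without radiation, in orange for the 76 on and in green for the 200 off the interferon list. The dotted line marks equal values, most genes lie in the same quadrant, and MPP7 and MRE11 lie below 0 on the horizontal and above 0 on the vertical axis.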

How the data were processed

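RNA of FaDu cells grown in DMEM with serum was selected with oligo-dT and sequenced as paired ends by the authors. The deposited table holds TPM per gene, which the authors computed from their reads, and each library sums to 1000000. The submitters' processing notes name HISAT2, StringTie, DESeq2 and hg38 without versions or roles, and the annotation and strand setting are not given in the sources used here. All per-sample columns were used. Columns headed with the non-targeting guide were taken as STING WT and those of the other line as STING KO. The header of the other line does not itself name STING. Gene identifiers were matched to GENCODE 29 (58025 of 58288) and promoters to RefSeq. TPM keeps no depth, so a count test was not possible.

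Genes at 1 TPM or more in at least 3 of 12 libraries were tested with limma 3.58.1 in R 4.3.3 on log2(TPM + 1), with 4 group means over all 12 libraries (8 residual degrees of freedom), empirical Bayes moderation with a trend and Benjamini-Hochberg adjustment at 0.05. The KO effect without radiation, that after radiation and their difference were tested. Tables were handled in Python 3.11.15 with pandas 2.3.3 and scipy 1.17.1, and the fit was tested on simulated data. Genes were named by rule: TMEM173, the 15 lowest and 15 highest passing genes off the interferon list whose groups did not overlap (clone names left out), up to 4 passing members of each of 46 function lists (or the most abundant member), and the 3 lowest interferon-list genes. The genes and lists were chosen with earlier results of these data known. Genes outside the rule are given where a count or a region turned on them. Results were recomputed with a pseudocount of 0.1, with no filter, a mean of 5 TPM, 2 other normalizations, no trend, a replicate block, the 6 unirradiated libraries alone and leaving out each library. Replicate numbers did not pair the libraries. Some genes that the rule names are not reported here.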

Additional observations from a re-analysis of the deposited data

Results flagged for a closer look

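The KO effect differed between unirradiated and irradiated cells for MPP7 and MRE11 in a test of the difference itself. MPP7, a scaffold protein of cell polarity, was 18.6, 17.3 and 17.2 TPM in WT and 8.57, 8.26 and 8.64 TPM in KO libraries without radiation, a log2 fold change of -0.98 (adjusted P = 8.07e-06, limma). After radiation it was 13.4, 13.8 and 12.5 TPM in WT and 15.3, 15.96 and 15.9 TPM in KO libraries, a log2 fold change of 0.23 that did not pass. The difference of the effects was 1.21 (SE 0.08, adjusted P = 5.46e-04). MRE11 was 24.4 to 28.4 TPM in WT and 16.2 to 18.7 TPM in KO libraries without radiation, and 17.0, 18.5 and 17.6 TPM in WT and 22.1, 25.9 and 25.7 TPM in KO libraries after it. Its log2 fold changes were -0.56 and 0.45, both past the threshold, and the difference was 1.01 (SE 0.12, adjusted P = 0.0348). With the replicate block, without the trend and in some fits that left out a library, only 1 gene passed for the difference. MPP7 and MRE11 thus cannot both have passed in those fits. MRE11 overlaps ANKRD49 on the opposite strand. What lies behind either pattern was not tested.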

How the results depend on the processing

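Among 77 named genes past the threshold, none changed direction in the 20 alternatives, 29 kept their call in all and 48 lost it in at least 1. With the 6 unirradiated libraries alone, which leave 4 residual degrees of freedom, 45 of the 77 lost their call, and 103 genes passed in all, 83 lower and 20 higher, with 39 lower and 19 higher off the interferon list. With no filter on low values 7 genes passed for the difference of the KO effects, and without the trend 1 did. The replicate numbers did not pair the libraries, since the deviations of same-numbered libraries correlated at -0.00876, 0.0207 and 0.021, and libraries 2 and 3 but not 1 correlated best with their own number. With the replicate block 211 genes passed, 48 of them higher (48 off the interferon list), and 1 passed for the difference. Leaving out 1 library at a time gave 172 to 292 genes in all, 136 to 212 lower and 36 to 80 higher. Off the list these fits gave 74 to 138 lower and 36 to 79 higher genes. Of the genes called in each such fit, 145 to 187 also passed in the same direction after radiation, and 1 to 9 genes passed for the difference. TMEM173 ranged from -1.89 to -1.71. Where a group was left with 2 libraries, the spread was pooled over all groups. The other normalizations moved the median of all genes by 0.0189 and 0.0287. TPM without depth sets no counting limit on low genes.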

Other observations

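CLDN4, a claudin of tight junctions, had the largest spread among the junction genes. It was 81.3, 87.3 and 1.22 TPM in WT and 77.9, 2.37 and 1.70 TPM in KO libraries, so that 1 WT and 2 KO libraries lay far below the rest, and the KO effect did not pass (log2 fold change -1.50, SE 1.83, adjusted P = 0.774, limma). It was chosen after its values were seen.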
